A study of Homo sapiens with 8 samples.

Results

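The genes described here are 10 members and regulators of the myostatin, activin and bone morphogenetic protein (BMP) branch of the TGF-beta superfamily, out of 16796 genes in the count files. They are the ligands MSTN, INHBA, INHBE, BMP2 and BMP4, the receptor BMPR2, the secreted antagonists FST, FSTL3 and GREM1, and the follistatin-like protein FSTL1. They were picked by gene symbol, with the contrast between inhibitor-treated and control cells already known. Their differences in that contrast are therefore given as a description and carry no test.

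Ligands of this family are secreted as precursors, are cut by proteases and bind pairs of type II and type I receptor kinases. Myostatin and the activins act mainly through the activin receptors and the proteins SMAD2 and SMAD3, whereas BMPs act through BMP receptors and SMAD1, SMAD5 and SMAD9. Follistatin and FSTL3 capture activins and myostatin, and gremlin 1 captures BMPs, so that signaling depends on the balance between ligand and antagonist. In the liver, activins and several of these antagonists are known products of activated hepatic stellate cells, the cells that turn into collagen-producing myofibroblasts during fibrosis.

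Messenger RNA was sequenced in LX-2 cells, an immortalised human hepatic stellate cell line with myofibroblastic features. Control cells received the vehicle DMSO, and OGTi cells received 50 µM OSMI-1, an inhibitor of the O-GlcNAc transferase OGT, for 24 h. Both groups grew in 5% serum and had 4 libraries each, from independent experiments in which treated and control cells shared a replicate number. All libraries thus come from 1 cell line, 1 inhibitor, 1 dose and 1 time. The libraries held 24166756 to 28201215 counts, and 12829 to 13180 genes had at least 10 counts in a library.

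As a check of the treatment, the mRNA of OGT was 5636 ± 260 (SD, n = 4) normalized counts (counts divided by the size factor of the library) in control cells and 4146 ± 477 in OGTi cells. The mRNA of OGA, the enzyme that removes the same sugar, was 3159 ± 423 and 903.5 ± 85.3. These mRNA levels do not show whether the OGT enzyme was inhibited, and O-GlcNAc itself was not measured here. Of the 15 stellate cell and myofibroblast markers listed, 9 reached 10 normalized counts in every library, and DES, LRAT, HAND2, DCN and LUM stayed under 10 in every library. The summed level of the 15 markers was 197287 to 222992 normalized counts in control cells and 150254 to 184906 in OGTi cells. Of the 9, 7 were called lower, with log2 fold changes of -2.50 for COL3A1, -2.07 for RELN, -1.75 for ACTA2, -1.39 for COL1A2, -0.95 for COL1A1, -0.90 for PDGFRB and -0.28 for THY1. TIMP1 was called higher (0.47) and VIM was not called (-0.09). Over all genes fitted, 22.6% were called lower and 21.4% higher. The part of these marker differences in the values below was not tested. In bulk RNA, fewer cells making a transcript and less of it per cell cannot be told apart.

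The promoters of MSTN, FST and INHBA are shown because these members had the largest fitted differences between the groups. The lines give the 250 bases before the RefSeq transcription start on GRCh38.p14, 5′ to 3′ on the strand of the gene, with matches to the searched letters in capitals. MSTN lies at chr2:190062730-190062979 (minus strand), INHBA at chr7:41703091-41703340 (minus strand) and FST at chr5:53480379-53480628 (plus strand). The INHBA window ends at a start inside the GENCODE span of the gene, because longer INHBA models begin further upstream.
MSTN: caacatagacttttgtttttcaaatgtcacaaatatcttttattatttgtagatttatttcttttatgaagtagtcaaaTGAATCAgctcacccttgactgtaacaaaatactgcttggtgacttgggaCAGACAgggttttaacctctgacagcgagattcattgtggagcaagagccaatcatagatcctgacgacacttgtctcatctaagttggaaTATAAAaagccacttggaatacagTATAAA
INHBA: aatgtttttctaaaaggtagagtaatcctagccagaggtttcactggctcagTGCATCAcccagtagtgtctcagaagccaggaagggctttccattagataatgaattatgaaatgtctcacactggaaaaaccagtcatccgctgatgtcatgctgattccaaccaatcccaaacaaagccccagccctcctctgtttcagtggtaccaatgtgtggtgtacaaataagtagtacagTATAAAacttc
FST: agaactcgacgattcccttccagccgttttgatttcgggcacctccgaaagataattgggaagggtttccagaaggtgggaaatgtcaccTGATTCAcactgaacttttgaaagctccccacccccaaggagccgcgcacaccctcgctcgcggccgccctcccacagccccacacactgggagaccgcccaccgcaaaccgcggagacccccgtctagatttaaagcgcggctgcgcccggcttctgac

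The letters searched on both strands were GGAATG (TEAD), TGANTCA (AP-1), TGACGT (the core of the cyclic AMP response element), TGATGCA (the core of the C/EBP-ATF composite), CAGACA (the SMAD box) and TATAAA (the TATA box). In MSTN the capitals mark TGAATCA, a match to TGANTCA, 171 to 165 bases before the start. They then mark CAGACA at 121 to 116 and TATAAA at 30 to 25 and at 6 to 1. INHBA held TGATGCA on the minus strand, which reads TGCATCA in the line above, at 198 to 192, and TATAAA at 11 to 6. FST held TGATTCA, also a match to TGANTCA, at 160 to 154. The searched letters TGANTCA allow any base at the centre, which was A in MSTN and T in FST. Among all 35097 promoter windows of the table, 6.57% held the AP-1 letters, 2.16% TGATGCA, 13.6% CAGACA, 10.7% TATAAA, 11.9% GGAATG and 7.1% TGACGT.

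Windows were given for 8 of the 10 members, 11 windows in all, and INHBE and BMP2 were without one. None of the 11 windows held GGAATG or TGACGT, and the FSTL1 window held no match to any of the searched letters. CAGACA also matched in GREM1, BMP4 and BMPR2, in 1 window each, and TATAAA matched in FSTL3 on the minus strand, 29 to 24 bases before the start. The MSTN window was poor in G and C, at 35.2% of bases, a value that only 6.2% of all windows matched or went below. INHBA was at 42.8% and FST at 60.0%, against a median of 58.0% over all windows, and BMPR2, FSTL1 and FSTL3 were GC-rich at 79.2%, 74.4% and 80.0%. A match is a description of letters and not a binding site.

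MSTN encodes myostatin, the ligand known for limiting muscle growth. It lies at chr2:190055700-190062729 on the minus strand and shares its locus with C2orf88 on the other strand, which the strand-specific counting keeps apart. Control cells had 1135, 1158, 1872 and 1115 normalized counts in replicates 1 to 4, and OGTi cells had 34.7, 90.4, 116 and 92.2. Every OGTi library was below every control library, and control replicate 3 stood above the other controls. The group means were 1320 ± 368 and 83.4 ± 34.5 (SD, n = 4), a fitted log2 fold change of -4.06 ± 0.31 (SE), or 16.6-fold lower. Within the replicate pairs the log2 ratio lay between -4.99 and -3.58, and it was lowest in pair 1, where OGTi had 38 counts before scaling. Without replicate 3 the fitted value was -4.08, and 31 of the 14895 genes fitted had a lower log2 fold change than MSTN.

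INHBA encodes the subunit that forms activin A, a ligand with known pro-fibrotic activity, and is found at chr7:41667168-41705834 on the minus strand. Its normalized counts were 221, 239.5, 284 and 220.5 in control cells and 85.9, 101, 66.3 and 59.1 in OGTi cells. The groups did not overlap, and the highest OGTi library was below the lowest control by a wide margin. The means were 241 ± 29.7 and 78.2 ± 19.2, with a log2 fold change of -1.64 ± 0.21, or 3.12-fold lower. The pair ratios lay between -2.08 and -1.23 on the log2 scale.

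BMP4, a ligand of the BMP branch made by mesenchymal cells, lies at chr14:53949736-53958761 on the minus strand. Control cells had 1726, 1775, 1184 and 1310 normalized counts, and OGTi cells 849, 1377, 690 and 669. The groups overlapped because OGTi replicate 2 was above control replicates 3 and 4. Each OGTi library was nevertheless below the control of the same replicate, with pair log2 ratios between -1.02 and -0.37. The means of 1499 ± 296 and 896 ± 330 gave a log2 fold change of -0.78 ± 0.11, or 1.72-fold lower.

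INHBE (chr12:57452323-57459280, plus strand), which encodes the subunit of activin E and is known as a hepatocyte product, was close to the detection limit. It had 10.7, 3.76, 8.04 and 5.20 normalized counts in control cells and 5.48, 12.1, 2.88 and 3.01 in OGTi cells. The groups overlapped widely, and a difference was not detectable at this depth. The log2 fold change was -0.40, with a 95% interval from -2.20 to 1.40.

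BMP2 (chr20:6767686-6780246, plus strand), the close relative of BMP4, had 0 counts in 7 of the 8 libraries and 4 counts in OGTi replicate 3. With fewer than 10 counts in total it did not enter the fit. A count of 0 allows up to 3 counts in a library, counting error only. BMP4 was thus the only one of these BMP ligands with counts in every library.

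**Figure D1:**
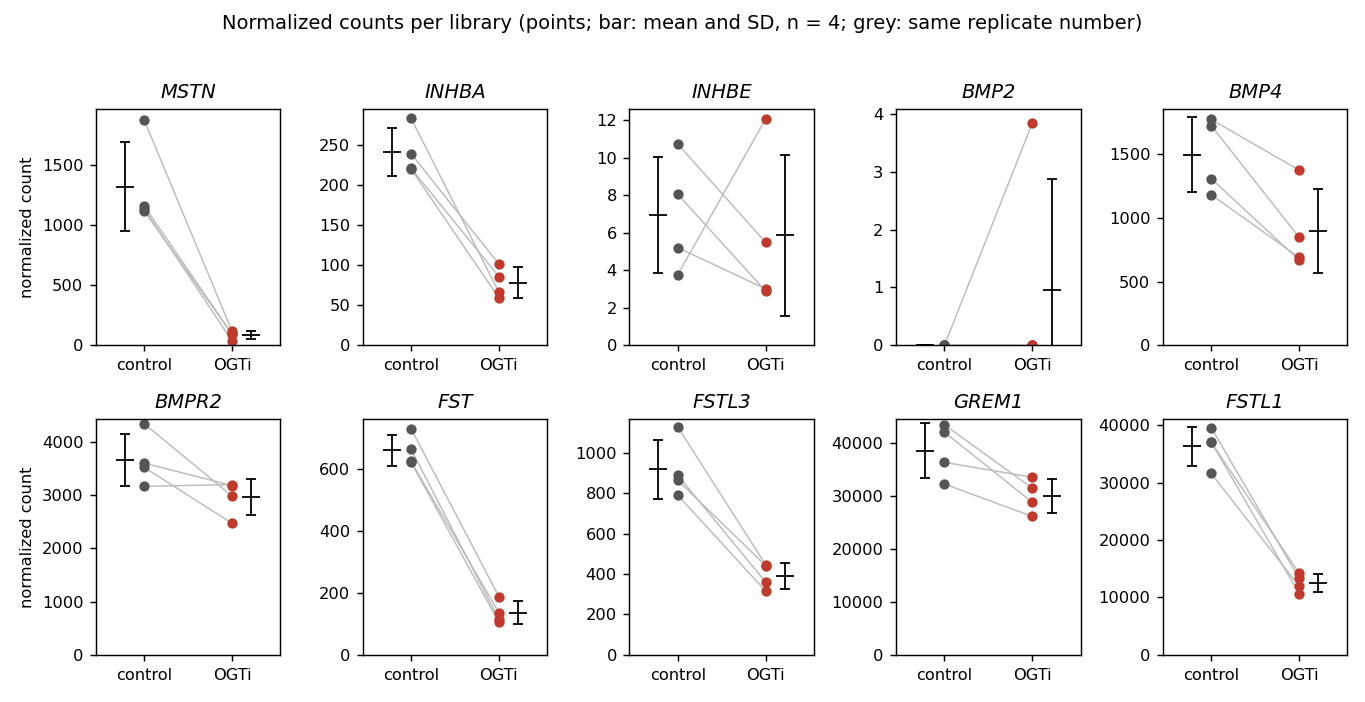
Normalized counts (vertical axes, linear and starting at 0) of the 10 genes in each control (grey) and OGTi (red) library; bars give the mean and SD of 4 libraries and thin lines join libraries of the same replicate number. MSTN, INHBA, FST, FSTL3 and FSTL1 show groups that do not overlap, while BMP4, BMPR2 and GREM1 overlap and INHBE and BMP2 sit near 0.

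The receptor BMPR2, the type II receptor of the BMP branch, spans chr2:202376327-202567751 on the plus strand. Its normalized counts were 3164, 3521, 4340 and 3601 in control cells and 3199, 2470, 2982 and 3180 in OGTi cells. The groups overlapped, since control replicate 1 was below OGTi replicates 1 and 4, and the pair ratio was lower in 3 of 4 pairs. The means were 3657 ± 494 and 2958 ± 340, with a log2 fold change of -0.30 ± 0.10, or 1.23-fold lower. BMPR2 was the member whose call depended on single pairs: without replicate 2 the value was -0.23 and without replicate 3 it was also -0.23, and neither was called. An annotated protein-coding model without a symbol in the count files overlaps BMPR2 on the same strand, and how reads were shared with it was not tested.

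Among the antagonists, FST, which encodes follistatin (chr5:53480626-53487134, plus strand), had 623, 729, 663 and 621 normalized counts in control cells. OGTi cells had 136, 188, 114 and 105. The groups were far apart, and the controls lay close to each other. The means of 659 ± 50.4 and 136 ± 37.0 gave a log2 fold change of -2.30 ± 0.15, or 4.93-fold lower, and 216 of the fitted genes had a lower value.

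FSTL3 (chr19:676392-683392, plus strand) encodes a second follistatin-type antagonist of activins and myostatin. It had 790, 889, 1127 and 864 normalized counts in control cells and 316, 361, 446 and 442 in OGTi cells. Each OGTi library was below each control library. The log2 fold change was -1.23 ± 0.11, or 2.35-fold lower, and the pairs spread from -1.34 to -0.97.

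GREM1 (chr15:32718004-32745106, plus strand), which encodes the BMP antagonist gremlin 1, was one of the most abundant members. Control cells had 36392, 32291, 42091 and 43491 normalized counts, and OGTi cells 33574, 26166, 28838 and 31504. The groups overlapped at the lowest control, replicate 2, although every pair was lower, with log2 ratios between -0.55 and -0.12. The means of 38566 ± 5189 and 30021 ± 3219 gave a log2 fold change of -0.36 ± 0.08, or 1.28-fold lower.

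FSTL1 (chr3:120392293-120451016, minus strand) encodes a secreted glycoprotein that carries a follistatin-type domain and is known for roles in BMP signaling and fibrosis. Its normalized counts were 37055, 37007, 39550 and 31585 in control cells and 10662, 14248, 13321 and 11970 in OGTi cells. The highest OGTi library had fewer counts than the lowest control. The log2 fold change of -1.54 ± 0.08 is 2.90-fold lower.

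The fit thus covered 9 of the 10 members, of which 8 were called lower at an adjusted p of 0.05 or less, 0 were called higher and 1, INHBE, was not called. Over all 14895 genes fitted, 43.9% were called in either direction, 22.6% lower and 21.4% higher. In 5 members all OGTi libraries were below all control libraries, a pattern seen in 19.2% of all fitted genes. Because the members were chosen with this contrast in view, nothing is read from these counts. The size of the difference varied widely among the members: MSTN at -4.06 and FST at -2.30 were at one end, and GREM1 at -0.36 and BMPR2 at -0.30 at the other. The median over the 9 members was -1.23, beside 0.00 over all genes, and for the same reason nothing is read from that gap.

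**Figure D2:**
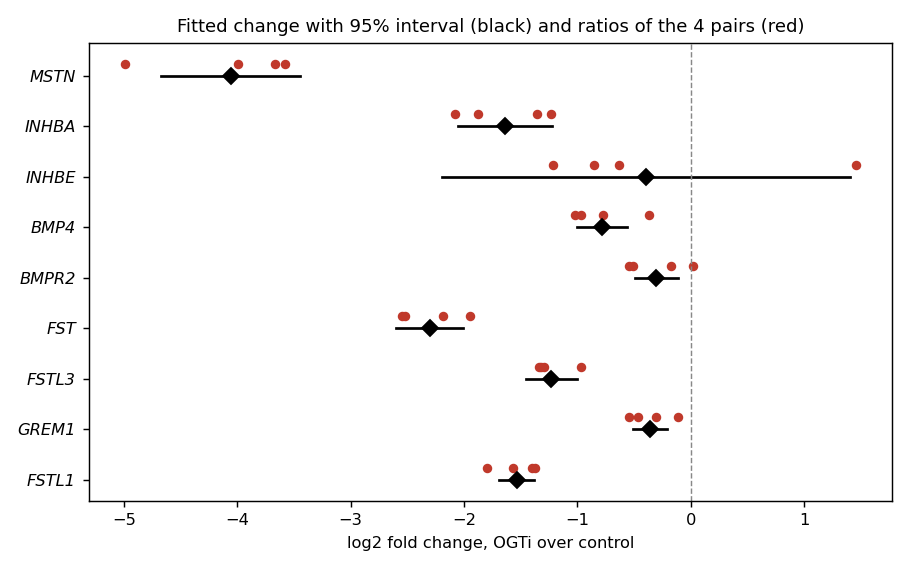
Fitted log2 fold change of OGTi over control (horizontal axis) for the 9 fitted members, with its 95% interval in black and the ratios of the 4 replicate pairs in red. All pairs lie below 0 for MSTN, INHBA, BMP4, FST, FSTL3, GREM1 and FSTL1, while 1 pair of BMPR2 and 1 pair of INHBE lie above 0.

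Levels of different genes were compared as CPM (counts scaled to the same total in every library) per kilobase of the longest coding transcript. In control cells FSTL1 had the highest level, 234 ± 22.9 (SD, n = 4), followed by GREM1 at 97.7 ± 10.96 and BMP4 at 28.8 ± 6.4. MSTN at 17.3 ± 4.5, FSTL3 at 13.5 ± 1.9, BMPR2 at 11.2 ± 1.3 and FST at 9.61 ± 0.85 formed a middle group. In that group, and between BMP4 and MSTN, the ranges of neighbours over the 4 libraries overlapped, so their order was not resolved. INHBA at 1.47 ± 0.16 and INHBE at 0.104 ± 0.048 were lower and apart from their neighbours, and BMP2 was at 0. With the median transcript length in place of the longest, the levels of FSTL1 and GREM1 were 4.11 and 4.32 times as high, that of MSTN was the same, and MSTN was of rank 6.

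In OGTi cells FSTL1 at 86.2 ± 10.03 and GREM1 at 81.2 ± 9.4 CPM per kilobase were almost level. The ratio of the FSTL1 level to the GREM1 level was 2.43 ± 0.45 in control cells and 1.08 ± 0.25 in OGTi cells, and it lay between 1.85 and 2.91 in the controls and between 0.807 and 1.38 in the OGTi libraries. MSTN was of rank 4 among the members in control cells and of rank 7 in OGTi cells, at 1.16 ± 0.48 CPM per kilobase, below FST at 2.11 ± 0.56. BMPR2 was of rank 6 in control cells and of rank 4 in OGTi cells, at 9.66 ± 1.19. The control ranks of MSTN and BMPR2 were not resolved, since their ranges overlapped those of neighbours. With the median transcript length BMPR2 was of rank 7 in control cells.

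**Figure D3:**
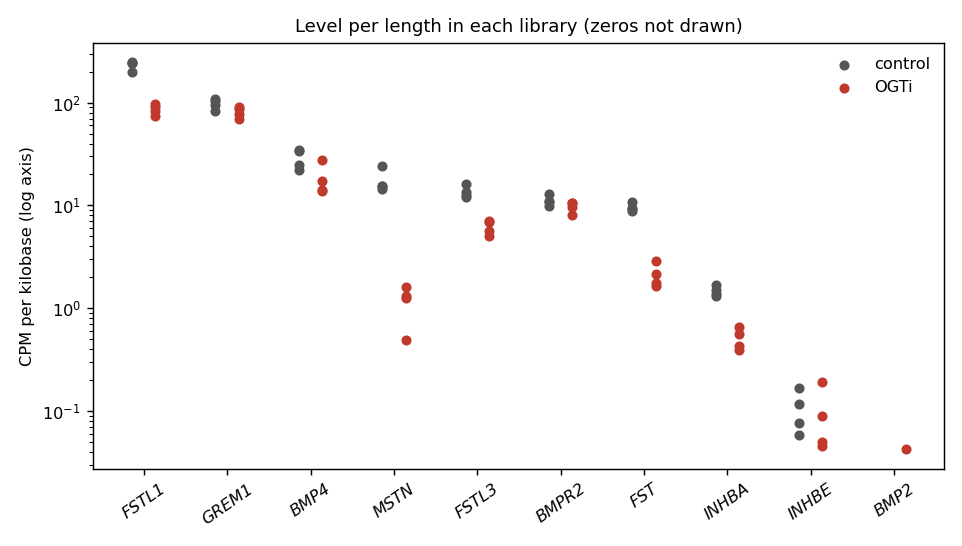
Level per length (CPM per kilobase, log axis) of each member in the 4 control (grey) and 4 OGTi (red) libraries, ordered by the control level. The members span from 234 for FSTL1 to 0.104 for INHBE in control cells, and MSTN shows the widest gap between the groups.

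Among the 5 member ligands, the makeup of the transcripts differed between the groups. Other ligands are left out of these shares. GDF11 was at 16.4 ± 1.3 CPM per kilobase in control cells and 24.2 ± 1.5 in OGTi cells. BMP4 was at 18.2 ± 6.6 in OGTi cells, and AMH was at 10.6 ± 1.5 and 8.79 ± 0.98 in the 2 groups. The shares therefore do not describe all ligand transcripts of these cells. MSTN made up 30.1%, 29.96%, 50.0% and 35.5% of the summed level per length of the 5 ligands in control replicates 1 to 4, and 2.63%, 4.18%, 10.02% and 8.38% in OGTi replicates 1 to 4. BMP4 made up 60.3 ± 9.8% in control cells and 90.6 ± 3.4% in OGTi cells, although its own counts were lower there. INHBA kept a small share, 3.11 ± 0.37% and 2.60 ± 0.35%. Per length, MSTN stood to BMP4 as 0.641 ± 0.302 in control cells and as 0.0707 ± 0.0410 in OGTi cells. Control replicate 3 had the highest MSTN and the lowest BMP4 counts of the controls, and the highest ratio, 1.08. With the median transcript length in place of the longest, the ratio was 0.369 ± 0.174 in control cells, at most 0.624, and 0.0407 ± 0.0236 in OGTi cells, and the MSTN share was 24.4 ± 7.6% and 3.68 ± 2.07%.

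**Figure D4:**
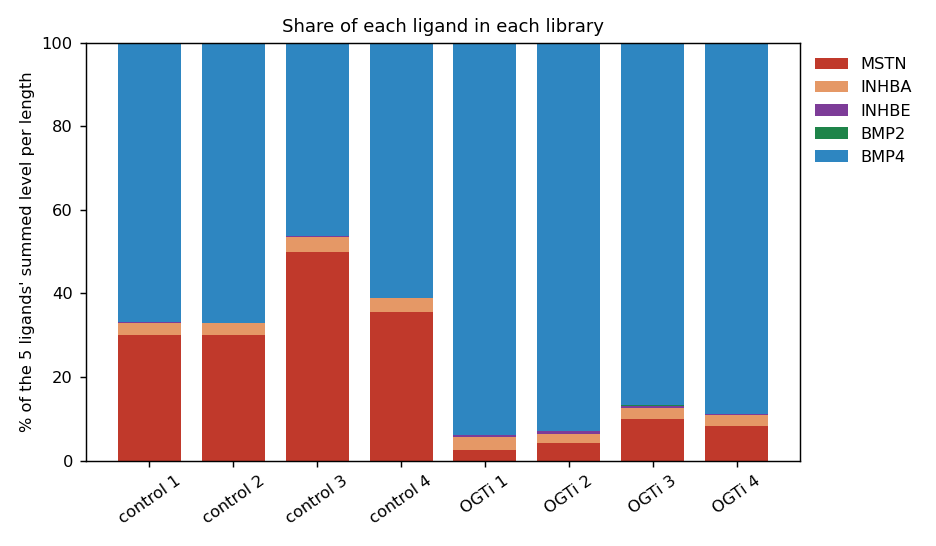
Share (percent, vertical axis) of each of the 5 member ligands in their summed level per length in each library, as stacked bars. Other ligands are left out. BMP4 takes 86.8% to 93.9% in the OGTi libraries and 46.2% to 67.0% in the control libraries, where MSTN takes most of the rest.

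The members did not share 1 profile over the 8 libraries. Likeness was measured as the root mean square difference between log2 profiles centred on the control mean, where 0 means identical profiles. Profiles centred in this way carry the difference between the groups. The distances below therefore partly restate the fold changes and are not a separate result. The closest members were GREM1 and BMPR2 at 0.129, INHBA and FSTL1 at 0.241, and FSTL1 and FSTL3 at 0.285. With INHBE and BMP2 left out for their low counts, MSTN was far from all other members, between 1.38 for FST and 2.71 for BMPR2.

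Among 10934 candidates, each averaging 100 or more normalized counts, the gene nearest to MSTN was TGFB2, at 0.465, followed by RTL3 and EDN1. TGFB2 encodes the ligand TGF-beta 2 and EDN1 encodes endothelin 1, and their log2 fold changes were -3.54 and -3.40. INHBA was nearest to LHX9, SERPINB2 and ARSI at 0.164 to 0.186. FST was nearest to PSG9, CEMIP and RBM24 at 0.184 to 0.245, and CEMIP encodes a hyaluronan-degrading protein.

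FSTL1 was nearest to PTH1R, ELOVL2 and LHX9 at 0.0879 to 0.0998, so that LHX9 was near both FSTL1 and INHBA. FSTL3 was nearest to the growth factor gene FGF2 and to the transcription factor genes KLF11 and RUNX2, at 0.0863 to 0.102. BMP4 was nearest to JDP2, PIF1 and BLOC1S1 at 0.112 to 0.184, and JDP2 encodes a partner of AP-1 proteins. GREM1 was nearest to CAPN2, ZNF107 and ARNTL2, and BMPR2 to RFX7, SON and PHF6, at 0.0362 to 0.0749. The INHBE profile rests on too few counts for its neighbours, TENT5B, TSPAN33 and TPM2 at 0.362 to 0.407, to be informative.

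The other genes of the pathway were examined with a list of 84 genes, of which 74 were in the files and 65 had enough counts to be fitted. A gene passed the test at a q, the Benjamini-Hochberg adjusted p of DESeq2 over all genes, of 0.05 or lower. Of these 65 genes, 13 rose (20%), 25 fell (38.5%), 21 did not pass the test and 6 received no adjusted p because of low counts, beside 21.4% risen and 22.6% fallen over all genes fitted. The median log2 fold change of the list was -0.17. The roles differed in their counts, from 7 fallen and 0 risen of 10 SMAD proteins and ubiquitin ligases to 4 fallen and 6 risen of 12 transcriptional targets.

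Of 16 other ligands fitted, 2 rose, 3 fell, 8 did not pass the test and 3 received no adjusted p. GDF11, the closest relative of myostatin, rose by 0.47 ± 0.07 on the log2 scale (q = 8.88e-11), from a control mean of 3908 ± 319 to an OGTi mean of 5417 ± 369, and had higher values in all 4 pairs. BMP6, a BMP ligand known for controlling hepcidin in the liver, rose from 1.24 ± 0.90 to 26.0 ± 14.9 normalized counts (q = 5.70e-06). Its log2 fold change of 4.42 ± 0.91 rests on 0 to 1.95 normalized counts in the controls. INHBB, the subunit of activin B, fell from 91.7 ± 35.6 to 32.9 ± 17.3, by 1.51 on the log2 scale (q = 1.63e-05), and was lower in all 4 pairs. The other ligands that fell were GDF6 (-1.62) and AMH (-0.36), named after their values were seen. Per length, GDF11 stood at 24.2 ± 1.5 CPM per kilobase in OGTi cells, above MSTN at 1.16 there. In control cells GDF11 was at 16.4 ± 1.3 and MSTN at 17.3 ± 4.5, or at 28.7 ± 2.2 and 17.3 ± 4.5 with the median transcript length.

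Of 11 other receptors and co-receptors, 2 rose and 4 fell. ACVR1, a type I receptor of the BMP branch, rose with a log2 fold change of 0.43 ± 0.12 (q = 0.000803). RGMB, a BMP co-receptor, fell from 6161 ± 285 to 2847 ± 259 normalized counts, by 1.12 on the log2 scale (q = 8.07e-52), with no overlap between the groups. ACVRL1, a type I receptor best known from endothelial cells, fell from 40.1 ± 12.6 to 13.0 ± 8.6 normalized counts (log2 fold change -1.78 ± 0.51, q = 0.00168). The summed endothelial markers, 4 of 6 in the files, were 49.7 to 91.1 normalized counts in control cells and 17.0 to 33.8 in OGTi cells. Among them only CDH5 was called, falling from 37.3 ± 9.6 to 3.86 ± 2.10 normalized counts. VWF (26.5 ± 10.7 and 19.5 ± 5.1) and PECAM1 (5.11 ± 2.93 and 3.80 ± 2.65) were not called, and KDR did not enter the fit. The part of these markers in the ACVRL1 value was not tested.

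The type II receptors of myostatin and activin went in opposite directions, with calls that depended on the setting. ACVR2A rose by 0.70 ± 0.24 on the log2 scale (q = 0.0107), but was not called without replicate 2 (q = 0.130), replicate 3 (q = 0.0559) or replicate 4 (q = 0.103). ACVR2B fell by 0.39 ± 0.17 (q = 0.0483) and was called under 2 of 10 alternative settings, with adjusted p between 0.0186 and 0.178. BMPR1A, a type I receptor of BMPs whose counts include reads shared with other genes, had a log2 fold change of -0.33 ± 0.11 (q = 0.00927), which was not called without replicate 2 (q = 0.145) or replicate 3 (q = 0.0635). ACVR1B, the type I receptor of activins, had 1722 ± 156 and 1658 ± 223 normalized counts, with a 95% interval of the log2 fold change from -0.22 to 0.10.

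Of 10 other extracellular antagonists, 1 rose and 4 fell. BMPER, a secreted BMP-binding protein, fell from 1133 ± 155 to 433 ± 76.0 normalized counts, by 1.39 ± 0.11 on the log2 scale (q = 4.58e-32). CHRDL1, of the chordin family, fell by 0.59 ± 0.16 (q = 0.000760). WFIKKN1 also fell (-1.10 ± 0.40, q = 0.0155) and KCP rose (2.22 ± 0.72, q = 0.00580), both named after their values were seen. The KCP value rests on 5.23 ± 4.26 normalized counts in the controls.

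Among 6 proteases that process the ligands or their antagonists, 2 rose and 3 fell. TLL1 and BMP1 encode tolloid proteases, which cleave chordin and the myostatin propeptide. TLL1 fell from 2178 ± 401 to 589 ± 159 normalized counts, by 1.91 ± 0.10 on the log2 scale (q = 4.80e-74), and BMP1 fell by 0.38 ± 0.08 (q = 1.60e-05). PCSK5, a proprotein convertase, rose from 17.1 ± 5.9 to 82.2 ± 35.9 normalized counts (log2 fold change 2.25 ± 0.36, q = 5.67e-09). The others called were FURIN, which fell (-0.31), and TLL2, which rose (3.29) from 1.95 ± 1.999 normalized counts, both named after their values were seen.

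No SMAD or SMURF gene rose, and 7 of the 10 fell. SMAD9, a BMP-branch SMAD, fell by 1.35 ± 0.17 on the log2 scale (q = 8.62e-15), with part of its counts shared with other genes. SMAD6, the inhibitory SMAD of the BMP branch, fell from 782 ± 50.9 to 440 ± 62.7 normalized counts (log2 fold change -0.84 ± 0.11, q = 4.93e-13). SMAD3, which carries activin, myostatin and TGF-beta signals, fell from 4634 ± 424 to 3133 ± 146 (log2 fold change -0.56 ± 0.08, q = 8.60e-12).

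The 12 transcriptional targets fitted, of which 6 rose and 4 fell, did not move together. ID1 and ID2, inhibitors of DNA binding that BMP signals are known to induce, rose by 0.72 ± 0.11 (q = 7.63e-10) and 1.18 ± 0.27 (q = 4.05e-05) on the log2 scale, with no overlap between the groups. ID3, of the same family, had 1971 ± 429 and 1490 ± 322 normalized counts and a log2 fold change of -0.40 ± 0.12 (q = 0.00271). Its groups overlapped and its call held under 5 of 10 alternative settings, with adjusted p up to 0.0987, and it was lost without replicate 1 (q = 0.0668) or replicate 4 (q = 0.0665). ATOH8, another BMP-responsive transcription factor gene, fell from 968 ± 90.3 to 191 ± 63.8 normalized counts (log2 fold change -2.39 ± 0.16, q = 6.15e-51). MSX1, a homeobox gene downstream of BMPs, rose from 489 ± 35.2 to 883 ± 125 normalized counts (log2 fold change 0.84 ± 0.12, q = 1.57e-11). The other targets that fell were SKIL (-0.54) and TGFBI (-0.19), and the others that rose were MSX2 (0.64), PMEPA1 (0.79) and LDLRAD4 (0.28), all named after their values were seen. PMEPA1 had overlapping groups, higher values in 3 of 4 pairs and q = 0.0423. The groups of TGFBI also overlapped (q = 0.0262), and LDLRAD4 had q = 0.0351.

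**Figure D5:**
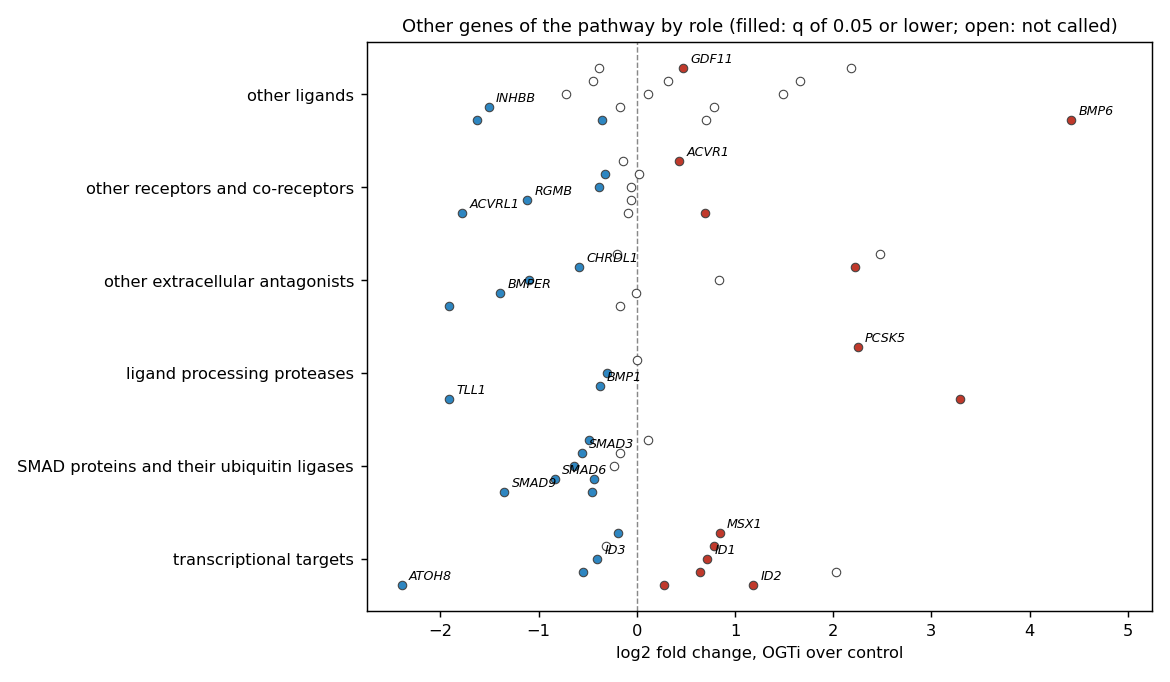
Log2 fold change of OGTi over control (horizontal axis) for the 65 fitted genes of the pathway list that are not members, in rows by role; filled points passed an adjusted p of 0.05 (red higher, blue lower) and open points did not or had no adjusted p. The row of SMAD proteins and ubiquitin ligases holds 7 fallen and 0 risen genes, while the targets lie on both sides of 0.

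Myostatin is best known as a product of skeletal muscle, and markers of that and other cell types were read beside the members. Of 7 skeletal muscle markers 3 were in the files, and MYOD1 and CKM were under 10 normalized counts in every library. The summed level of the 3 was 5.20 to 18.8 normalized counts in control cells and 0.961 to 2.74 in OGTi cells. It was mostly MYH2 in the control libraries, beside 1115 or more for MSTN in every control. MYH2 was called lower, from 12.7 ± 5.63 to 0.491 ± 0.568 normalized counts, with no overlap between the groups. Its log2 fold change was -4.69 ± 1.25 (q = 0.000668), beside -4.06 for MSTN, and rests on few counts. MYOD1 and CKM did not enter the fit. The part of the MYH2 difference in the MSTN value was not tested. Hepatocyte markers, 2 of 6 in the files, summed to 19.5 to 74.0 and 26.0 to 74.0 normalized counts, with APOA1 under 10. Macrophage markers summed to 65.5 to 102 and 48.1 to 97.4, and cholangiocyte markers to 681 to 1151 and 955 to 1273, mostly SOX9. The cholangiocyte sum hides opposite directions. SOX9 was called higher (log2 fold change 0.35, q = 0.00715) and KRT7 was called lower (-1.05, q = 0.000229). KRT19, PECAM1, KDR and CSF1R were under 10 in every library.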

How the data were processed

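RNA was measured by paired-end, strand-specific sequencing of polyadenylated RNA. The authors aligned reads to hg38 with Bowtie2 2.3.5.1 and a GENCODE annotation and counted them per gene with RSEM 1.3.1. The deposited values are expected counts, estimates in which a read with several alignments is shared between genes, not scaled for depth. They were rounded to whole numbers. A deposited table of the authors' own comparison (fold changes and p-values, made with DESeq2 1.36.0) was not used.

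Genes with at least 10 counts in total over the 8 libraries were fitted with DESeq2 1.42.0 (R 4.3.3; Wald test, no shrinkage), with treatment and replicate number as terms, as the study paired its samples. The p-values were adjusted by Benjamini-Hochberg over all genes and called at 0.05. Of 14895 genes fitted, 14028 received an adjusted p. The pairing comes from the study's methods. Deviations from the group mean of same-numbered libraries correlated at r = 0.372, 0.391, 0.165 and 0.327 for replicates 1 to 4, over 10994 genes. Libraries of different numbers correlated at r between -0.346 and 0.343. The highest was control 3 with OGTi 4, and control 4 with OGTi 3 was at 0.255. The correlations thus do not single out the stated pairs of replicates 3 and 4. Levels per length used the longest coding transcript of GENCODE release 44. Promoters were RefSeq windows on GRCh38.p14. Pair ratios and profiles used log2(normalized count + 1). Intervals cover 95%, and 4 libraries per group set the precision. The fitting step was also run on simulated counts with known differences and no replicate effect. That run does not show how the fit performs on the present libraries. Alternatives were DESeq2 without the replicate term, the quasi-likelihood test of edgeR 4.0.16 with and without it, TMM factors, other count filters, omission of each pair, and the median transcript length.

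The members and gene lists were chosen with earlier results of these data known. Genes named are the members, ACVR1, ACVR1B, ACVR2A, ACVR2B, BMPR1A and the ID genes, the 3 genes of each role with the largest Wald statistic, and the 3 genes nearest in profile to each member. Further called genes of the pathway list are named too, and these were chosen after their values were seen. Cell type markers come from a fixed list. OGT and OGA are named as the genes of the enzymes that add and remove O-GlcNAc. ID4 was not analysed here, and 1 antagonist that the rule picks is not reported here.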

Additional observations from a re-analysis of the deposited data

Results flagged for a closer look

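Of 71 groups of 4 libraries examined for a library standing apart (by Dixon's criterion, the gap to the nearest library over the whole range), 6 had one, and chance alone gives about 1 in 20, or 3.55. Control replicate 3 stood apart for MSTN, at 1872 normalized counts, since the remaining controls lay between 1115 and 1158. BMP2 had 3.85 normalized counts in OGTi replicate 3, where the other OGTi libraries had 0. ID1 was low in control replicate 2, at 556 against 780 to 821 normalized counts, and CHRDL1 was low in the same library, at 354 against 422 to 434. OGTi replicate 2 was high for PCSK5, at 136 against 58.1 to 68.3, and low for SMAD3, at 2917 against 3186 to 3241 normalized counts. In all of these except BMP2, which was not tested, the direction of the difference between the groups was the same without the library's pair.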

How the results depend on the processing

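Over 10 alternatives each, the 9 fitted members kept their direction in all 89 values, and the 24 pathway genes picked by the naming rule kept theirs in all 240 values, of which 221 also stayed on the same side of the threshold and 19 lost the call (mainly in ACVR2B, ID3, ACVR2A and BMPR1A). Without the replicate block, DESeq2 called 6307 genes in all, 8 members lower and 0 higher, and 14 pathway genes higher and 24 lower, beside 6541, 8, 0, 13 and 25 with the pairing, and ACVR2B lost its call (q = 0.0552). When each pair was left out in turn, 5127 to 5690 genes were called, 7 to 8 members lower, 0 higher, 9 to 11 pathway genes higher and 20 to 22 lower. Scaling moved the median over all genes by at most 0.01 on the log2 scale. With the median transcript length in place of the longest coding transcript, 6 of the 10 members kept their rank in control cells, and MSTN, FST, FSTL3 and BMPR2 did not. The levels themselves were 1.25 (BMPR2) to 4.32 times (GREM1) those printed, except for MSTN, which was unchanged, and BMP2, at 0. Control means became 962 for FSTL1, 422 for GREM1, 50.1 for BMP4, 45.4 for FSTL3, 34.3 for FST, 13.9 for BMPR2, 4.45 for INHBA and 0.225 for INHBE. The shares and ratios under that length were an alternative chosen after seeing the data. INHBE had no value under the filter of 10 counts in 4 libraries. Depth limited INHBE and BMP2, and no test of the members was independent of their choice.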
